A study of Mus musculus with 80 samples.

Results

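Mammary tumours driven by one Myc transgene were compared between mice without E2F1 and mice without E2F2. The tumours were chosen by their genotype label alone: 20 arrays of E2F1 null tumours and 20 of E2F2 null tumours, 40 of the 80 arrays in the series, with 1 array per tumour. The other arrays, 20 of tumours wild type for the E2F genes and 20 of E2F3 heterozygous tumours, entered the fit as further groups and serve as reference levels. All 4 groups shared the FVB strain and the MMTV-Myc transgene, in which the mouse mammary tumour virus promoter drives Myc mainly in mammary epithelium. Each primary tumour was frozen when it had reached the endpoint, and the sources used here do not give the age of the mice. Each label also carries a number before a hyphen. The E2F1 null tumours held 16 such numbers and the E2F2 null tumours 11, 22 of the 40 arrays shared a number with another array, and the largest number of tumours under 1 number was 4. The sources used here do not say what the number stands for or whether the tumours came from separate mice, and p-values measure the spread between these tumours with the number as a random block.

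E2F1 and E2F2 belong to the activating branch of the E2F family. Bound to a DP partner, these transcription factors recognise E2F sites in the promoters of genes for DNA replication and mitosis, and the retinoblastoma protein holds them inactive until a cell commits to division. Myc raises E2F activity, E2F1 is also known for inducing apoptosis, and the activating members overlap in many of their targets. The comparison sets the loss of one activator directly against the loss of another, under the same oncogene. In the mouse, E2f1 lies on chromosome 2 and E2f2 on chromosome 4, so genes on these chromosomes are described apart from all others.

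Values are log2 of the deposited intensity plus 5, and a log2 fold change is E2F1 null over E2F2 null, so that a positive value means higher in E2F1 null tumours. Fold changes come from the fit with the label number as a block and can differ slightly from the difference of the group means. The arrays were of like overall brightness, with median log2 values from 7.07 to 7.45 in E2F1 null and from 7.02 to 7.39 in E2F2 null tumours. The 3' to 5' ratio of the beta-actin control probe sets, which rises as RNA degrades, was 0.777 ± 0.25 on the log2 scale (SD, n = 20) in E2F1 null and 0.677 ± 0.18 in E2F2 null tumours. The same ratio of the Gapdh control probe sets was closer between the groups, at -0.29 ± 0.11 in E2F1 null and -0.316 ± 0.076 in E2F2 null tumours. The part of RNA quality in the results below was not tested. E2F1 null replicate 6, the only tumour of label number 3898, had the lowest mean correlation with the other arrays, 0.911. The labelled tissue was matched by its epithelial markers. Krt8, a keratin of luminal cells, had medians of 13.10 and 13.19 in E2F1 null and E2F2 null tumours, and the adhesion protein Epcam had 12.32 and 12.42. The T and NK cell markers Cd3e, Cd3g and Nkg7 did not pass the filter on dim probe sets. In pieces of whole tumour, fewer cells of a type and less RNA per cell cannot be told apart.

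The targeted genes and Myc were read first. No value here reads the Myc transgene apart from the endogenous Myc gene. E2f1 had 2 probe sets. By 1431875_a_at its signal was 6.38 ± 0.45 (SD, n = 20) in E2F1 null and 7.13 ± 0.43 in E2F2 null tumours, a log2 fold change of -0.77 (SE 0.14, limma adjusted p = 0.000489 over 14092 probe sets). By the brighter 1417878_at, used for the gene-level test, it was 6.95 ± 0.42 and 7.12 ± 0.25, a log2 fold change of -0.17 (SE 0.11, limma adjusted p = 0.599 over 8769 genes). The sources used here do not give the exons missing from the null allele, so neither probe set can be placed against the deletion. E2f2 has no probe set assigned to it alone and was not analysed here. E2f3 was at 6.84 ± 0.37 and 6.84 ± 0.31, and Myc at 13.49 ± 0.29 and 13.55 ± 0.27. The log2 fold change of Myc was -0.06 (SE 0.09, 95% interval -0.24 to 0.11), and the tumours spanned 12.48 to 13.85 and 12.79 to 13.92, nearly the same range.

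Few genes separated the 2 null genotypes, and nearly all of them lay close to the gene that had been inactivated. Of 8769 genes tested, 14 passed an adjusted p of 0.05, which is 0.16%. Of these, 10 were higher and 4 lower in E2F1 null tumours. Chromosome 2 held 8 of them, 1.15% of its 694 tested genes, and chromosome 4 held 5, 0.911% of its 549. The other 7526 genes gave 1, which is 0.0133%. With each array set to a common median, 8 genes passed, 4 higher and 4 lower. At an unadjusted p under 0.05 there were 840 genes, 9.58% of those tested, with 6.01% higher and 3.57% lower. Only Rbbp9 separated the tumours of both groups without any overlap, 1 gene or 0.0114% of those tested.

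On chromosome 2, Rbbp9 showed the largest difference. It encodes a serine hydrolase that binds the retinoblastoma protein. Its log2 signal ran from 7.47 over a median of 8.27 to 8.95 in E2F1 null tumours, and from 5.69 over 6.27 to 6.90 in E2F2 null tumours. All 20 E2F1 null tumours lay above every E2F2 null tumour. The log2 fold change was 2.00 with an SE of 0.13 (limma adjusted p = 1.37e-21), which is 4-fold. Wild-type tumours were at 6.37 ± 0.40 (SD, n = 20), beside the E2F2 null group, whose mean lay under the filter level of 6.314, so the size of the fold change is uncertain.

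Mapre1 encodes EB1, a protein that rides the growing ends of microtubules, and was the clearest gene on the lower side. Its signal ran from 9.99 over 10.42 to 11.04 in E2F1 null tumours and from 11.01 over 11.26 to 11.45 in E2F2 null tumours. All but 1 of the E2F1 null tumours lay below every E2F2 null tumour, and the log2 fold change was -0.83 with an SE of 0.07 (limma adjusted p = 1.15e-14). The wild-type mean was 11.35 ± 0.19. Its 4 probe sets past the filter did not move alike, with log2 fold changes of -0.83, -1.14, -0.31 and 0.17.

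The other genes of chromosome 2 overlapped between the groups. Rin2, a Rab5 exchange factor of endocytosis, ran from 9.27 over 9.86 to 10.78 in E2F1 null and from 8.44 over 9.21 to 10.25 in E2F2 null tumours, a log2 fold change of 0.67 (SE 0.13, limma adjusted p = 0.00305). In Rin2, 12 E2F2 null tumours lay below every E2F1 null tumour, but only 2 E2F1 null tumours lay above every E2F2 null tumour. Pdrg1, a small prefoldin-like protein that p53 and DNA damage regulate, had medians of 9.30 and 8.61 and rose by 0.67 (SE 0.13, adjusted p = 0.00305 by the same fit), while its other probe set stood at 0.34 (SE 0.13) and did not pass among all probe sets (limma adjusted p = 0.469). Cdk5rap1, an enzyme that modifies mitochondrial tRNA, had medians of 7.91 and 7.51 and rose by 0.46 (SE 0.10, limma adjusted p = 0.0148). In Cdk5rap1, 15 E2F1 null tumours lay above every E2F2 null tumour, but only 2 E2F2 null tumours lay below every E2F1 null tumour. Epb41l1, a protein 4.1 family member that ties membrane proteins to the cytoskeleton, had medians of 8.47 and 7.95. In Epb41l1, 15 E2F1 null tumours lay above every E2F2 null tumour, and 11 E2F2 null tumours lay below every E2F1 null tumour. Its log2 fold change was 0.54 with an SE of 0.12 (limma adjusted p = 0.0243). Pofut1, which adds O-fucose to Notch receptors, fell by 0.51 on the log2 scale (SE 0.11, limma adjusted p = 0.0243), with medians of 5.65 and 6.21. Both values are under the filter level.

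Zcchc3, an RNA and DNA sensor cofactor, showed opposite values by its 2 probe sets. By the one used for the gene it was 8.39 ± 0.25 (SD, n = 20) in E2F1 null and 7.99 ± 0.23 in E2F2 null tumours, a log2 fold change of 0.40 (SE 0.09, limma adjusted p = 0.0243). By the other it was 6.37 ± 0.54 and 7.74 ± 0.29, a log2 fold change of -1.38 (SE 0.14). With the mean of both, the gene turned to -0.49 (limma adjusted p = 0.0106; over all alternatives the fold change ran from -0.49 to 0.43). The direction of this gene is therefore not settled by these arrays.

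On chromosome 4, Pnrc2 differed most clearly. It encodes a nuclear receptor coactivator that also takes part in mRNA decay. Its signal ran from 10.75 over 11.23 to 11.60 in E2F1 null tumours and from 10.17 over 10.50 to 10.90 in E2F2 null tumours. Of the E2F1 null tumours 16 lay above every E2F2 null tumour, and the log2 fold change was 0.65 with an SE of 0.08 (limma adjusted p = 1.49e-09). The wild-type mean, 11.16 ± 0.20, lay beside that of the E2F1 null group. A second probe set, less bright, stood at 0.31 (SE 0.08) and did not pass among all probe sets (limma adjusted p = 0.101).

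Pink1 and Capzb were lower in E2F1 null tumours. Pink1, the kinase that marks damaged mitochondria for removal, ran from 7.45 over 8.58 to 9.33 in E2F1 null and from 8.26 over 9.17 to 9.93 in E2F2 null tumours, a log2 fold change of -0.59 (SE 0.12, limma adjusted p = 0.00573). Capzb, the beta subunit of the actin-capping protein, ran from 9.30 over 10.14 to 11.29 and from 9.70 over 11.09 to 11.50. Its log2 fold change was -0.70 with an SE of 0.15 (limma adjusted p = 0.0157), and its 3 probe sets moved alike, at -0.54, -0.69 and -0.57.

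Pithd1 and Aldh4a1 were higher in E2F1 null tumours. Pithd1, a protein with a proteasome-interacting domain, had medians of 9.18 and 8.69 and rose by 0.49 (SE 0.11, limma adjusted p = 0.0157). In Pithd1, 15 E2F1 null tumours lay above every E2F2 null tumour, and 5 E2F2 null tumours lay below every E2F1 null tumour. Aldh4a1, the mitochondrial dehydrogenase of proline breakdown, had medians of 6.63 and 6.07 and rose by 0.56 (SE 0.13, limma adjusted p = 0.0383). It was called in 13 of the 27 fits that each left out 1 label number, and its E2F2 null mean of 6.12 lay under the filter level.

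The calls differed in firmness. Of the 27 fits that each left out 1 label number, Cdk5rap1 passed in 25, Pithd1 in 26, Capzb in 24, Pofut1 in 22, Epb41l1 in 21 and Zcchc3 in 19. Under the other settings the highest limma adjusted p was 0.365 for Cdk5rap1, 0.468 for Capzb, 0.349 for Pithd1, 0.422 for Zcchc3, 0.103 for Pofut1 and 0.0767 for Epb41l1. For Aldh4a1 the highest was 0.225, and for Pdrg1, which passed under 14 of 15 settings, it was 0.0625.

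**Figure D1:**
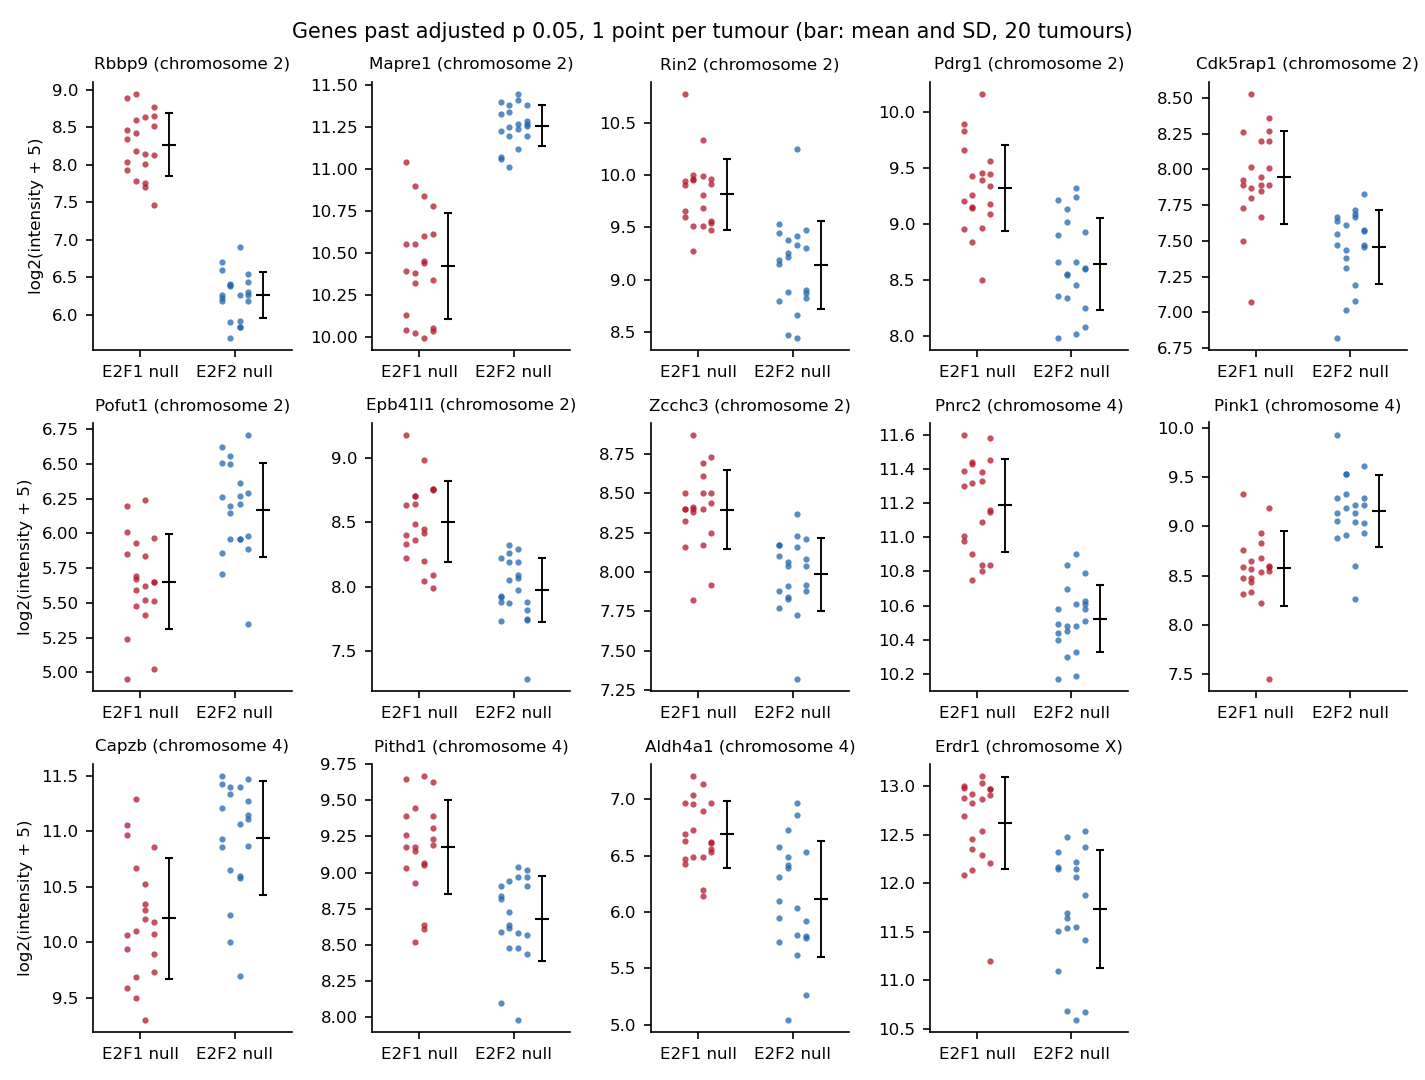
Each point is 1 tumour, the vertical axis is log2(intensity + 5), and the bar beside each group gives the mean and SD of 20 tumours for the 14 genes past the threshold. Rbbp9 separates both groups fully (7.47 to 8.95 against 5.69 to 6.90), while the other genes overlap to varying degrees.

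Wild-type tumours lay beside one genotype for some of these genes and between both for others. The wild-type comparisons use the same E2F1 null and E2F2 null arrays and share their wild-type controls, so they are no independent evidence. For Rbbp9 the log2 fold change against wild type was 1.91 in E2F1 null and -0.09 in E2F2 null tumours, and for Mapre1 it was -0.92 and -0.09. Cdk5rap1 had 0.51 and 0.05, and Pofut1 had -0.53 and -0.02. On chromosome 4 the sides were exchanged: Pnrc2 had 0.03 and -0.62, Pink1 0.09 and 0.68, and Capzb -0.12 and 0.58. Of the 14 genes, 4 passed against wild type in E2F1 null tumours (Rbbp9, Mapre1, Cdk5rap1 and Pofut1) and 2 in E2F2 null tumours (Pnrc2 and Pink1). Capzb did not (limma adjusted p = 0.521), nor did Pithd1, with 0.09 and -0.40, or Aldh4a1, with 0.10 and -0.47. On chromosome 2, Rin2 had 0.51 and -0.15, Zcchc3 0.31 and -0.09, Epb41l1 0.36 and -0.18 and Pdrg1 0.35 and -0.32, with limma adjusted p-values from 0.127 to 1.

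All 8 genes of chromosome 2 and all 5 of chromosome 4 lay within 20 Mb of the inactivated gene, measured between gene starts in the RefSeq table. Cdk5rap1 lay 0.3 Mb from E2f1, Mapre1 0.8, Pofut1 1.3, Pdrg1 1.6, Epb41l1 1.9, Zcchc3 2.1, Rin2 8.8 and Rbbp9 10 Mb. On chromosome 4, Pithd1 lay 0.2 Mb from E2f2, Pnrc2 0.3, Pink1 2.1, Capzb 3.0 and Aldh4a1 3.5 Mb. Among genes within 5 Mb of E2f1, 18.7% of 91 had an unadjusted p under 0.05, and the shares were 22.2% of 36 from 5 to 10 Mb and 20.8% of 72 from 10 to 20 Mb. Farther away they were 9.15% of 164 from 20 to 50 Mb and 10.9% of 331 beyond, against 9.22% of the genes on other chromosomes. Around E2f2 the shares were 14.6% of 96, 14.3% of 49, 6.12% of 147, 14.8% of 81 and 7.39% of 176 in the same bins. The excess over other chromosomes thus reached 20 Mb on chromosome 2, while on chromosome 4 it had no even course with distance. At an unadjusted p under 0.001, which 0.319% of all genes reached, another 4 genes in these windows did not pass the threshold: Selenon at 0.51 and Clic4 at -0.30 near E2f2, and Nfs1 at -0.32 and Mgme1 at -0.40 near E2f1.

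**Figure D2:**
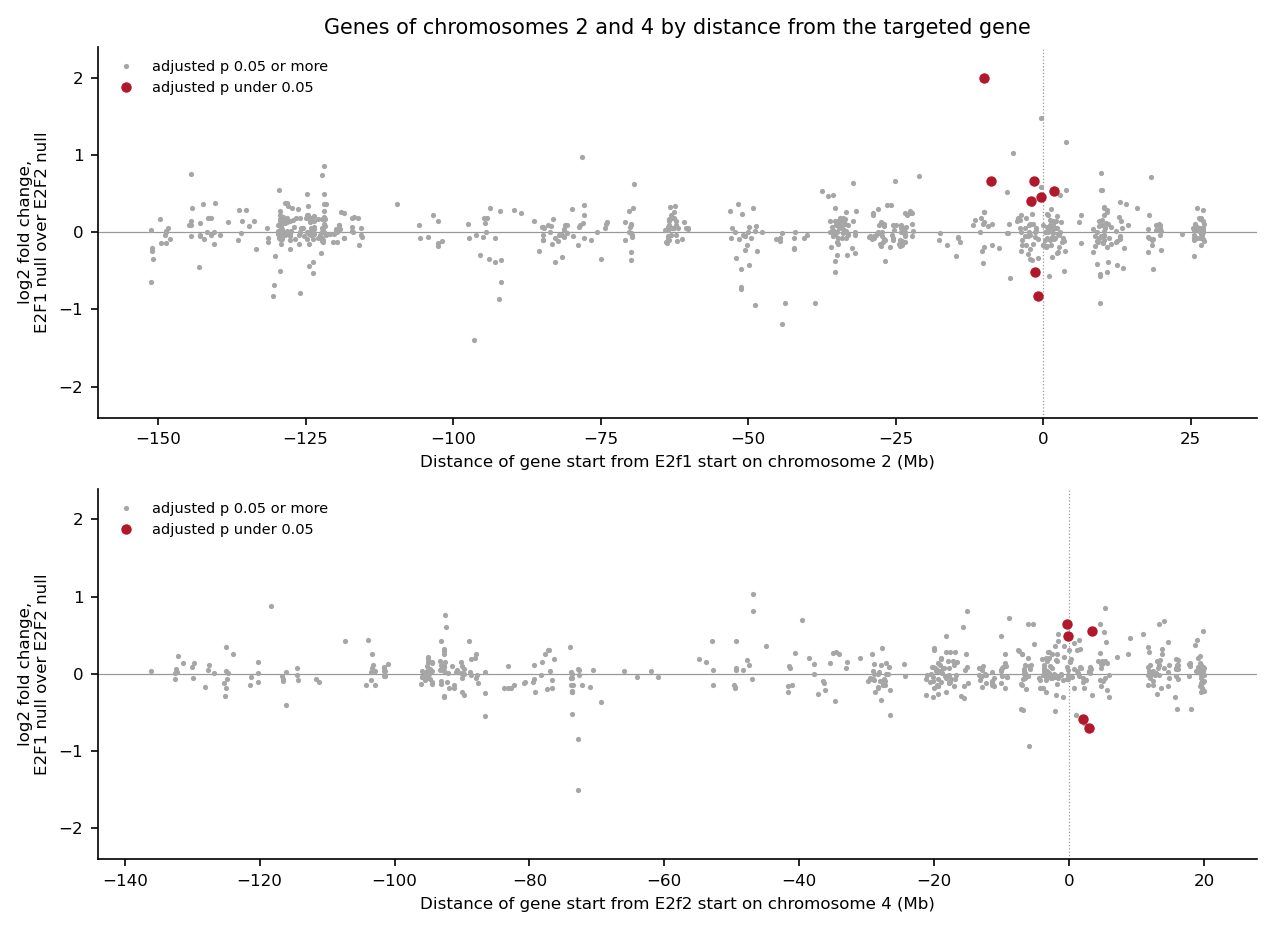
The log2 fold change, E2F1 null over E2F2 null, of each tested gene on chromosome 2 (top) and chromosome 4 (bottom) is drawn against the distance of its start from that of E2f1 or E2f2 in Mb. The 8 and 5 genes past the threshold (red) all lie within 20 Mb of the dotted line, the farthest being Rbbp9 at 10 Mb.

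Single probe sets showed further differences around both loci. When each of 14092 probe sets was tested, 32 passed (0.227%), 14 higher and 18 lower, from 27 genes. Of these, 17 were on chromosome 2 and 13 on chromosome 4, and 30 lay within 20 Mb of the inactivated gene. Beyond the 14 genes above, 13 others had such a probe set, and in each of them the brightest probe set, used for the gene, did not pass. They are named here after their values were seen, with the brighter probe set beside each.

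Near E2f1 the dimmer probe sets mostly read lower in E2F1 null tumours, while the brighter ones of the same genes differed less. The size for these genes thus depends on the probe set, and for some genes elsewhere the sign does too. Norad, a long noncoding RNA that restrains Pumilio proteins, was 5.36 ± 0.62 (SD, n = 20) against 7.52 ± 0.75, a log2 fold change of -2.20 (SE 0.29), but its brighter probe set stood at -0.09 (SE 0.06). Tgm2, a transglutaminase, was 8.20 ± 0.66 against 10.07 ± 0.83, a log2 fold change of -1.81 (SE 0.26), and stood at -0.50 (SE 0.28) by the brighter. The splicing factors Rbm39 and Crnkl1 had -0.98 (SE 0.18) and -0.77 (SE 0.10), against -0.01 and -0.17 by their brighter probe sets. The kinase Src had 0.66 (SE 0.15) and 0.48. Near E2f2, the small GTPase Cdc42 had -0.40 (SE 0.07) by the dimmer and 0.04 by the brighter probe set, the opposite sign. The splicing protein Srrm1 had 0.76 (SE 0.18) and -0.08, also of opposite sign. The mitochondrial ligase Mul1 had -0.60 (SE 0.14) and -0.18, the elongin subunit Eloa -0.52 (SE 0.09) and -0.01, Clic4 -0.39 (SE 0.09) and -0.30, and Fam76a 0.54 (SE 0.09) and 0.16. By the dimmer probe sets, wild-type means of Norad and Tgm2 were 7.31 and 9.93, close to those of E2F2 null tumours. Those of Cdc42 and Eloa were 11.56 and 7.95, close to the E2F1 null means of 11.59 and 7.94. One such probe set lay elsewhere: Pnpt1 on chromosome 11, a mitochondrial RNA-processing enzyme, was 6.96 ± 1.04 against 8.21 ± 0.27, a log2 fold change of -1.21 (SE 0.19, limma adjusted p = 1.22e-05 over probe sets), while its brighter probe set stood at 0.32 (SE 0.12), the opposite sign.

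Away from chromosomes 2 and 4, Erdr1 alone passed. Erdr1 is a stress-related gene of the X chromosome, known as erythroid differentiation regulator. Its signal ran from 11.20 over 12.85 to 13.11 in E2F1 null tumours and from 10.59 over 11.79 to 12.54 in E2F2 null tumours. Of the E2F1 null tumours 13 lay above every E2F2 null tumour, and 4 E2F2 null tumours lay below every E2F1 null tumour. The log2 fold change was 0.91 with an SE of 0.21 (95% interval 0.50 to 1.32, limma adjusted p = 0.0243), 1.88-fold. The wild-type tumours were wider and lay between, at 12.18 ± 0.89 (SD, n = 20), and neither genotype passed against them (0.46 with an adjusted p of 1 and -0.45 with 0.788, limma).

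The call for Erdr1 was not firm. Tumours of label number 3560 alone ranged from 10.59 to 11.88. Leaving out label number 3491, 3560, 3886, 3895, 3979, 4128 or 4332 brought its limma adjusted p to between 0.0502 and 0.0914, and the call was also lost with medians equalised and with 1 mean per label number. Across the 27 fits without 1 number, its fold change kept between 0.84 and 1.01. The suffix of its probe set, _x_at, marks probes that may bind several transcripts.

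Psmb8 came closest to the threshold among the remaining genes off both chromosomes. It encodes an interferon-inducible subunit of the immunoproteasome, which cuts proteins into peptides for MHC class I. Its signal ran from 7.26 over 8.29 to 10.89 in E2F1 null tumours and from 7.84 over 9.63 to 11.60 in E2F2 null tumours, with 4 tumours of each group beyond the range of the other. The log2 fold change was -1.26 with an SE of 0.32 (95% interval -1.89 to -0.62, limma adjusted p = 0.0982). Without label number 3979 or 4015 the adjusted p was 0.00919 or 0.0291, and without 4010 it was 0.589. Within label number 3560, a single set of tumours ranged from 8.47 to 11.60.

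The 20 genes off both chromosomes with the smallest p, Erdr1 and Psmb8 among them, comprised 14 higher and 6 lower in E2F1 null tumours. Apart from Erdr1, none passed the threshold. Several act on transcription or chromatin. Paf1, of the elongation complex of that name, was 8.29 ± 0.33 (SD, n = 20) against 7.94 ± 0.20, a log2 fold change of 0.35 (SE 0.09). Trrap, a scaffold of histone acetyltransferases that Myc recruits, had 0.37 (SE 0.12), and Mxd4, a Max partner that opposes Myc, had 0.56 (SE 0.17). The corepressor Tle2 had 0.85 (SE 0.26), and the zinc finger protein Cxxc5 had 0.71 (SE 0.21).

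Others act in signalling, trafficking and protein turnover. Dock6 had 1.20 (SE 0.35), the endocytic kinase Aak1 0.58 (SE 0.18), the autophagy protein Tecpr1 0.66 (SE 0.20) and the cochaperone Sgtb 0.73 (SE 0.22). Pomk, a kinase of dystroglycan glycosylation, had 0.41 (SE 0.11), and Csgalnact2, of chondroitin sulfate synthesis, 0.39 (SE 0.12). The helicase-like Dhx57 had 0.25 (SE 0.07), as did Fam122a, a PP2A inhibitor (SE 0.07). On the lower side stood Socs4, a suppressor of cytokine signalling, at -0.57 (SE 0.16) and the proteasome subunit Psmd4 at -0.23 (SE 0.06). Enzymes made up the rest: Cyp39a1, an oxysterol hydroxylase, at -0.55 (SE 0.15), Bdh1, of ketone body metabolism, at -1.44 (SE 0.44), and Gsta4, a glutathione transferase, at -1.25 (SE 0.38). Their limma adjusted p-values ran from 0.17 for Cyp39a1 to 0.384 for Trrap. Mean signals lay under the filter level in both genotypes for Sgtb and in 1 genotype for Dock6, Socs4 and Tle2.

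The largest fold changes off both chromosomes belonged to genes that varied widely within each genotype. Among the 155 such genes with an unadjusted p under 0.01, Col2a1, the collagen of cartilage, was at 2.32 (SE 0.85), with tumours from 3.37 to 11.73 in E2F1 null and from 2.92 to 10.49 in E2F2 null. Aire, the autoimmune regulator, was at -1.67 (SE 0.52), with tumours from 3.02 to 8.94 and from 3.43 to 10.20. The GTPase regulator Arhgap31 had 1.24 (SE 0.43), the semaphorin Sema3b 1.18 (SE 0.44), the amino acid transporter Slc38a3 1.12 (SE 0.42) and Plekhs1 -1.13 (SE 0.40). These 6 genes had limma adjusted p-values from 0.41 to 0.43. The groups overlapped over most of their ranges. For each of these 6 genes at least 1 group mean lay under the filter level, and for Sema3b and Plekhs1 both means did.

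Gene lists were read as counts and medians beside those of all genes tested, of which 56.1% were higher and 43.9% lower in E2F1 null tumours (56.4% higher off chromosomes 2 and 4), with a median log2 fold change of 0.02. With array medians equalised the higher share was 47.6% and the median -0.01, so the side on which most genes fell depended on the scaling. No member of any of the 30 lists passed the threshold, and the smallest limma adjusted p was 0.0982, for Psmb8. The lists were chosen with earlier results of these data known.

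Most genes of the E2F pathway and the cell cycle had slightly lower fitted values in E2F1 null than in E2F2 null tumours. In the E2F and pocket protein family, 9 of 10 members were lower, with a median of -0.08. The lower members include E2f1 itself, at -0.17 (SE 0.11), which the design inactivates in 1 of the groups. The counts, median and levels of this list therefore do not stand apart from the genotype. E2f8, an atypical E2F that represses E2F targets and is itself one, had medians of 8.09 in E2F1 null and 8.33 in E2F2 null tumours and stood at -0.33 (SE 0.12, limma adjusted p = 0.43). The pocket protein genes Rbl1, on chromosome 2, and Rb1 had -0.19 (SE 0.10) and -0.43 (SE 0.28). Among genes of DNA replication and G1/S, 36 of 43 were lower, with a median of -0.13 and 6.98% at an unadjusted p under 0.05. The mean level of that list in a tumour, as the deviation from all 80 arrays, ran from -0.72 over 0.08 to 0.44 in E2F1 null and from -0.41 over 0.06 to 0.63 in E2F2 null tumours, so the tumour medians lay the other way, and 11 of 20 E2F1 null tumours lay above the E2F2 null median. The ribonucleotide reductase subunit Rrm1 had -0.22 (SE 0.10), the flap nuclease Fen1 -0.26 (SE 0.13), thymidine kinase Tk1 -0.33 (SE 0.17) and geminin, Gmnn, -0.23 (SE 0.12).

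Mitosis and G2/M genes had 34 of 36 members lower, a median of -0.16 and 16.7% at an unadjusted p under 0.05, against 9.58% of all genes. Among them were the spindle midzone protein Prc1 at -0.28 (SE 0.12) and Nusap1, on chromosome 2, at -0.29 (SE 0.12). The kinetochore protein Ndc80 had -0.30 (SE 0.13), and the kinases Plk1 and Aurkb had -0.27 (SE 0.12) and -0.36 (SE 0.16). The mean level of the list in a tumour, as the deviation from the mean of all 80 arrays, ran from -0.83 over 0.02 to 0.47 in E2F1 null and from -0.22 over 0.14 to 0.51 in E2F2 null tumours. Of the E2F1 null tumours 6 lay below every E2F2 null tumour, while the upper ranges coincided. DNA damage and repair genes, with 12 of 15 lower, had a median of -0.10, and Brca1 had -0.21 (SE 0.11). Myc targets and ribosome biogenesis genes had 26 of 29 lower and a median of -0.10, with the nucleolar proteins Bop1 at -0.30 (SE 0.12) and Noc4l at -0.21 (SE 0.08) and lactate dehydrogenase Ldha at -0.32 (SE 0.12).

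Several of these medians leaned on E2F1 null replicate 6, which had the lowest mitosis level of the 40 E2F1 null and E2F2 null tumours, -0.83. Without it the median was -0.07 for replication with 32 of 43 lower, -0.12 for mitosis with 33 of 36, -0.05 for DNA repair with 12 of 15, and -0.04 for Myc targets with 23 of 29 and for the E2F family with 7 of 10. With all arrays, averaged over label numbers, the mitosis level was -0.10 ± 0.39 (SD) in wild-type tumours. It was -0.03 ± 0.36 in E2F1 null and 0.17 ± 0.16 in E2F2 null tumours. In the same order the averages were -0.08, 0.01 and 0.13 for replication and -0.08, -0.00 and 0.12 for DNA repair. They were -0.04, -0.03 and 0.11 for Myc targets and -0.02, -0.06 and 0.07 for the E2F family. On these averages wild-type tumours lay nearer to the E2F1 null group.

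The promoters of these lists were searched for E2F sites, TTTCCCGC and TTTGGCGC on both strands, in the window from 250 bases before to 50 after each RefSeq start. Of 40 promoters of 34 replication genes, 25% held a site, against 3% of the promoters of tested genes and 1.56% of all promoters of the table. Of 31 mitosis promoters 0 did, and of 15 promoters of 13 genes past the threshold 0 did. The replication promoters below show the site in capitals for the members with a site before the start and the smallest p, since this is the sequence through which E2F1 and E2F2 are known to act. Each is written 5′ to 3′ on the strand of the gene, from RefSeq, build GRCm38.p6.
Mcm6, chr1:128359782-128359841, minus strand: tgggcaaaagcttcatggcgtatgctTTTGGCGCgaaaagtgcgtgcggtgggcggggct
Mcm5, chr8:75109334-75109393, plus strand: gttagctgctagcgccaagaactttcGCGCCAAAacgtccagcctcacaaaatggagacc
Cdc6, chr11:98907987-98908046, plus strand: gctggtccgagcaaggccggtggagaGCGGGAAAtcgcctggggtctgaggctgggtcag
Mcm6 and Mcm5, subunits of the replicative helicase, had log2 fold changes of -0.18 and -0.15, and Cdc6, which loads it, had -0.15. The sites start 110, 149 and 138 bases before the gene start. All 10 replication genes with a site were lower in E2F1 null tumours, with a median of -0.10, and so were 19 of 24 with a promoter but no site, with a median of -0.12. Among all 260 tested genes with a site in the promoter, 51.2% were lower and the median was -0.00, beside 43.6% and 0.02 over the 7104 genes with a promoter in the table. At an unadjusted p under 0.05 the shares were 7.31% and 9.52%. None of the 260 passed the threshold (0 genes by limma, 19 at an unadjusted p under 0.05).

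The E-box CACGTG, through which Myc binds, was present in 2 of the 15 promoters of genes past the threshold, those of Mapre1 and Epb41l1, and in 10.1% of the promoters of tested genes. It is shown in capitals because these are the called promoters that hold a site of the transgene's product.
Mapre1, chr2:153741136-153741193, plus strand: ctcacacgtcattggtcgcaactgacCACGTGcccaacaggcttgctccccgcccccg
Epb41l1, chr2:156420777-156420834, plus strand: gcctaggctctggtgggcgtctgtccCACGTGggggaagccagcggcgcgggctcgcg
The E-boxes start 125 and 106 bases before the gene starts, and the genes lay on opposite sides, at -0.83 and 0.54. Over the 861 tested genes with an E-box the median was 0.02, as over all genes.

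Genes of p53 and apoptosis were mostly higher in E2F1 null tumours, 21 of 23, with a median of 0.15 and 21.7% at an unadjusted p under 0.05. The BH3-only protein gene Bbc3, also called Puma, was 7.89 ± 0.39 (SD, n = 20) against 7.57 ± 0.38, a log2 fold change of 0.31 (SE 0.12, limma adjusted p = 0.444). The tumour suppressor Cdkn2a, on chromosome 4, had 0.81 (SE 0.35), the stress gene Gadd45a 0.69 (SE 0.31) and the survival gene Bcl2 0.55 (SE 0.27). Gadd45a is on chromosome 6, whose genes as a whole were higher in E2F1 null tumours. The list median was 0.27 without label number 3765 and 0.10 without 3895.

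RAS and MAPK output genes had 12 of 12 members higher and a median of 0.55. The transcription factor Etv4 was 6.16 ± 2.11 (SD, n = 20) against 4.54 ± 1.72, a log2 fold change of 1.61 (SE 0.65, limma adjusted p = 0.444). Both Etv4 means lay under the filter level, so the size of this difference is uncertain. The ERK phosphatase Dusp6 had 1.15 (SE 0.56), the receptor Epha2, on chromosome 4, 0.54 (SE 0.26) and the feedback inhibitors Spry1 and Spry2 0.42 (SE 0.22) and 0.61 (SE 0.33). Tumour levels of the list ran from -1.73 over 0.61 to 1.80 in E2F1 null and from -1.49 over -0.35 to 1.29 in E2F2 null tumours. Tumours under 1 label number differed nearly as widely, from -1.73 to 0.58 in number 3886 and from -1.49 to 1.29 in number 3560. The direction held for 12 of 12 members under both other scalings and without each label number, with medians from 0.46 to 0.64.

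Interferon response genes were lower in E2F1 null tumours in 28 of 28 members, with a median of -0.70 and 39.3% lower at an unadjusted p under 0.05, beside 3.57% of all genes. Interferons induce these genes, many of which act against viruses. The restriction factor Bst2, or tetherin, was 7.78 ± 0.70 (SD, n = 20) against 8.75 ± 1.19, a log2 fold change of -0.89 (SE 0.31, limma adjusted p = 0.43). Ifi35 had -0.43 (SE 0.15), the RNA sensor Ifih1, on chromosome 2, -0.65 (SE 0.28) and the oligoadenylate synthetase Oas2 -1.06 (SE 0.47). MHC class I and antigen processing genes followed, with 10 of 10 lower and a median of -0.25. Beside Psmb8, its partner subunit Psmb9 had -0.68 (SE 0.26) and the peptide transporter Tap2 -0.44 (SE 0.15).

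The interferon difference lay with some E2F2 null tumours rather than all of them. Tumour levels of the list ran from -1.01 over -0.44 to 1.04 in E2F1 null and from -1.40 over 0.16 to 3.70 in E2F2 null tumours. Of the E2F2 null tumours 5 lay above every E2F1 null tumour and 2 lay below every one. Wild-type tumours had a median of -0.43 and reached 1.73, and E2F3 heterozygous tumours had -0.23 and reached 2.75. Levels above the E2F1 null range were thus not confined to E2F2 null tumours. The 4 tumours of label number 4010 were at 1.99, 0.41, 1.03 and 1.76. Those of number 3560 were at 0.05, 3.70 and -0.42, so the highest tumour of all shared its number with one below 0. Without number 4010 the median was -0.52 with 27 of 28 lower, and with 1 mean per label number it was -0.37 with 25 of 28 lower. Immune cell markers were read beside it. Of 17 listed T and NK cell genes 3 were bright enough to be tested, and all 3 were lower in E2F1 null tumours. Their mean level ran from -1.68 over a median of -0.07 to 1.73 in E2F1 null tumours. In E2F2 null tumours it ran from -1.05 over 0.25 to 1.51. Of 19 macrophage genes 18 were tested, with levels from -1.41 to 1.72 and from -1.04 to 0.53, higher in E2F1 null tumours in 14 of 18. The part of immune cells in the interferon difference was not tested.

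**Figure D3:**
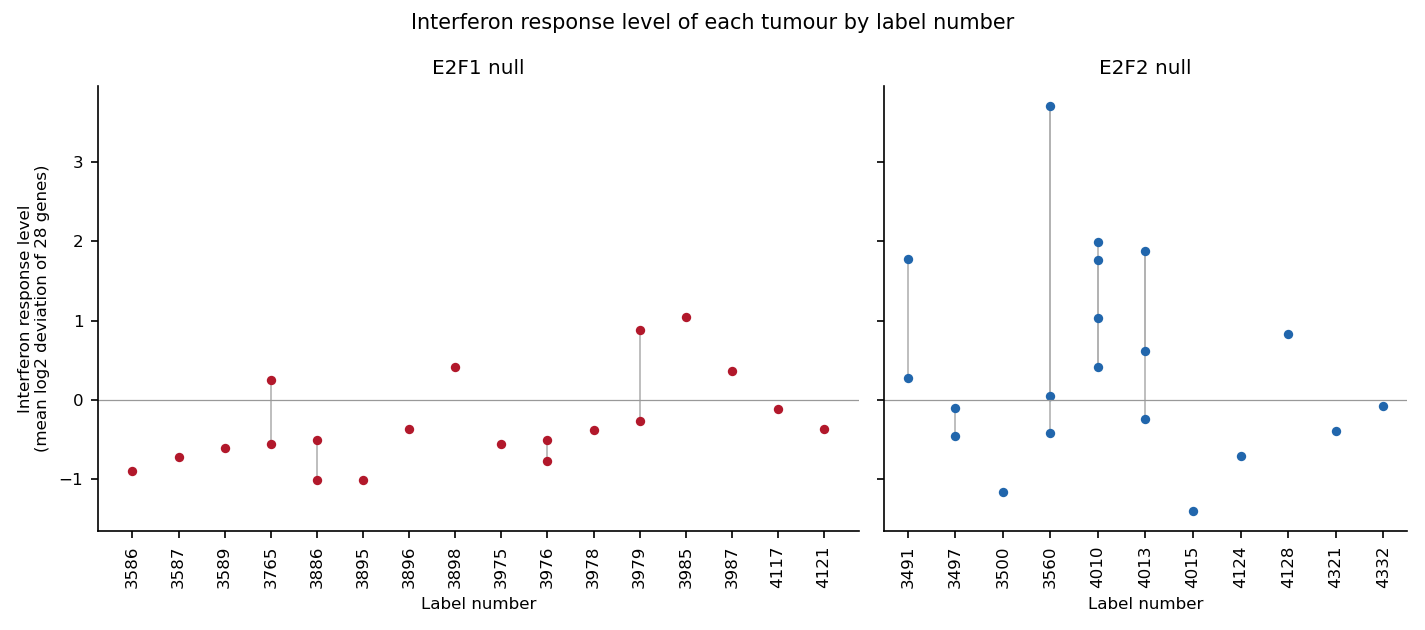
Each point is the interferon response level of 1 tumour, the mean over 28 genes of the log2 deviation from all 80 arrays, placed by label number with a grey line joining tumours of 1 number. E2F1 null tumours lie between -1.01 and 1.04, while 5 E2F2 null tumours of numbers 3491, 3560, 4010 and 4013 lie above that range.

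Genes of the secretory mammary cell were lower in E2F1 null tumours, but varied widely within each genotype. Milk and secretory differentiation genes had 13 of 13 lower and a median of -0.80, with 0% at an unadjusted p under 0.05. Butyrophilin Btn1a1 was 7.64 ± 2.48 (SD, n = 20) against 8.98 ± 2.19, a log2 fold change of -1.30 (SE 0.77, limma adjusted p = 0.583), and lactoferrin Ltf had -1.43 (SE 0.89). Tumour levels ran from -3.72 to 2.21 and from -3.05 to 2.93. Adipocyte genes, 7 of 12 tested, were also lower, with levels from -1.55 to 2.82 and from -1.54 to 3.17, and the part of adjoining fat or gland in the milk genes was not tested. The median was -0.45 without label number 4010 and -1.20 without 4015. Luminal epithelium genes had 11 of 16 lower and a median of -0.22, which was -0.09 without number 4010. The tight-junction gene Cldn3 had -0.36 (SE 0.17) and the alveolar regulator Elf5, on chromosome 2, -0.74 (SE 0.39). The luminal transcription factor Foxa1 stood at 1.12 (SE 0.65). Basal and myoepithelial genes had 8 of 12 higher at a median of 0.11, which turned to -0.07 without E2F1 null replicate 6. Keratinization genes had 8 of 10 higher at 0.26, with the calmodulin-like Calml3 at 0.77 (SE 0.33) and transglutaminase Tgm1 at -0.58 (SE 0.21).

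Metabolic genes were lower by small amounts. Hypoxia and glycolysis genes had 19 of 24 lower, a median of -0.19 and 25% at an unadjusted p under 0.05. Ndrg1 was 10.92 ± 0.91 (SD, n = 20) against 11.70 ± 1.15, a log2 fold change of -0.78 (SE 0.32, limma adjusted p = 0.444). The mitophagy receptor Bnip3 had -0.70 (SE 0.30) and the glycolytic regulator Pfkfb3, on chromosome 2, -0.45 (SE 0.19). Cholesterol and fatty acid synthesis genes had 19 of 21 lower at a median of -0.16, with farnesyl diphosphate synthase Fdps at -0.51 (SE 0.20). Oxidative phosphorylation genes had 27 of 31 lower at -0.07, and Cyc1, of complex III, had -0.32 (SE 0.12). Unfolded protein response genes stood at 0.02 and turned to -0.01 with medians equalised. Circadian clock genes stood at 0.04 and turned to -0.03 without label number 3560, and immediate early and heat shock genes at 0.05.

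No marker of stroma or immune cells passed the threshold, and the fibroblast and muscle lists turned with 1 tumour or label number left out. Endothelial genes had 13 of 13 higher at a median of 0.22, with the adhesion protein Esam at 0.36 (SE 0.17) and the VEGF receptor Kdr at 0.42 (SE 0.20). Neutrophil and inflammatory genes had 8 of 8 higher at 0.48, with Il1b, on chromosome 2, at 0.66 (SE 0.27) and Csf3r, on chromosome 4, at 0.49 (SE 0.22). Genes of the epithelial to mesenchymal transition had 13 of 16 higher at 0.28. Twist1 had 1.07 (SE 0.42), with both group means under the filter level. Without E2F1 null replicate 6 the endothelial, neutrophil and transition medians were 0.12, 0.32 and 0.14. Macrophage and myeloid genes had 14 of 18 higher at 0.20 and stood at 0.05 without label number 4010. Fibroblast and collagen matrix genes had 13 of 21 higher at 0.04 and turned to -0.15 without E2F1 null replicate 6, and MHC class II genes had 4 of 4 higher at 0.16, or 0.05 without that tumour. Wnt pathway output genes had 7 of 9 higher at 0.28, and skeletal muscle genes 11 of 18 at 0.11, which turned to -0.12 without label number 3895 and to -0.08 without 4010. Adipocyte genes had 6 of 7 lower at -0.26, T and NK cell genes 3 of 3 at -0.22 and B cell and plasma cell genes 2 of 3 at -0.29.

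**Figure D4:**
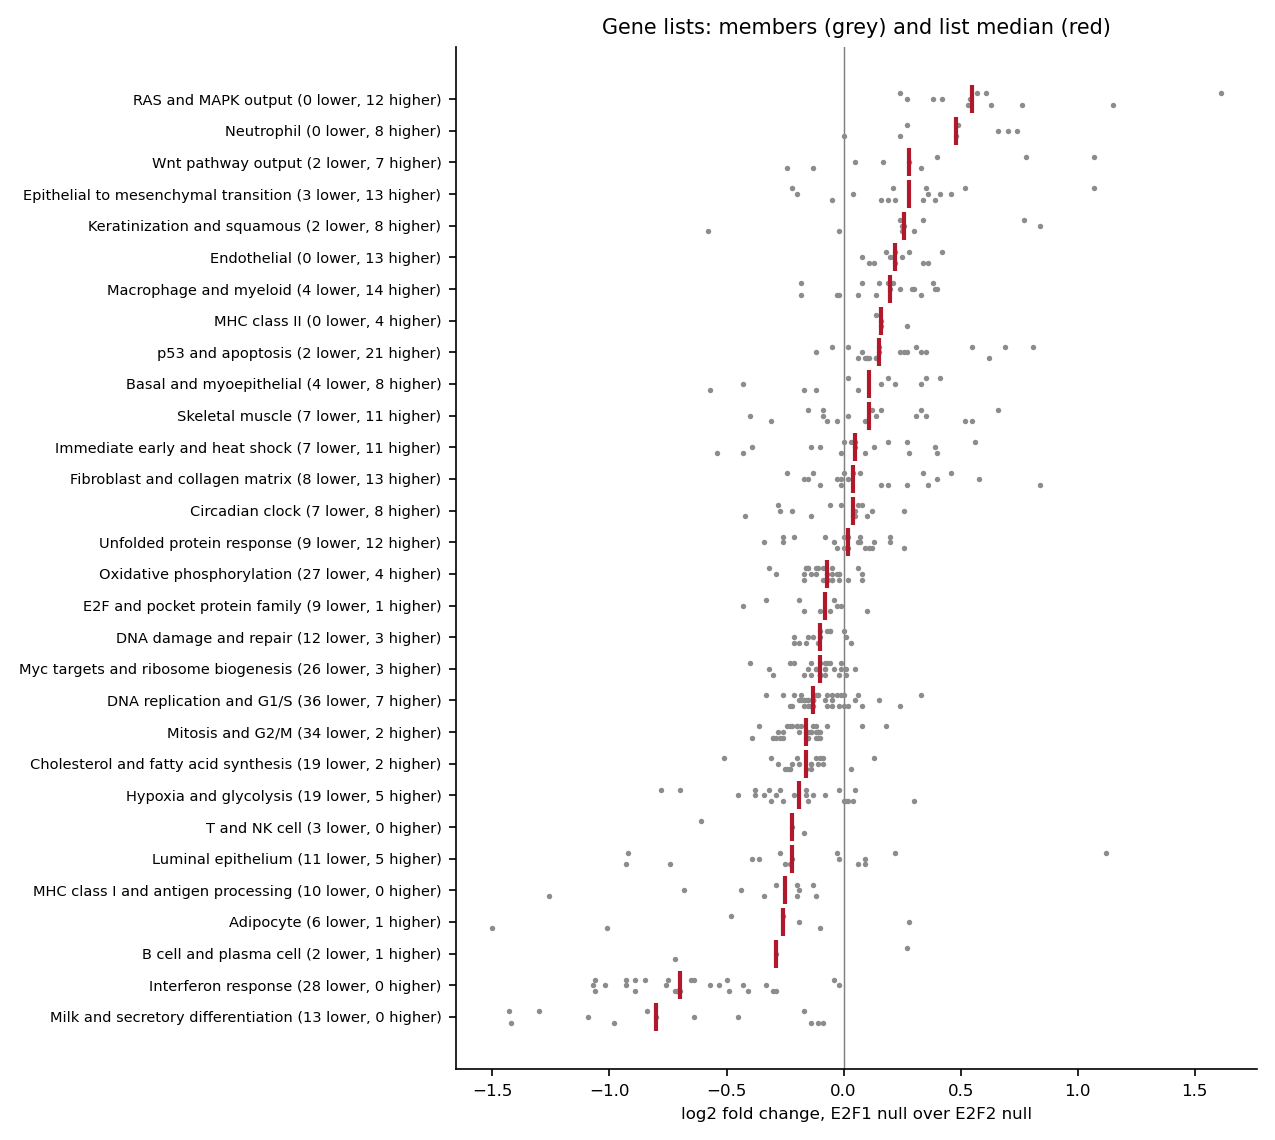
For each of the 30 lists, grey points are the log2 fold changes of its tested members, E2F1 null over E2F2 null, and the red bar is their median. The medians run from -0.80 for milk genes and -0.70 for interferon genes to 0.55 for RAS and MAPK output genes, and no point passed the threshold.

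Read by chromosome, chromosomes 6 and 15 lay farthest from the share of all genes, in opposite directions. Of the 459 tested genes of chromosome 6, 79.3% were higher in E2F1 null tumours, against 56.1% of all genes, and their median log2 fold change was 0.14. The share was 73.6% with medians equalised, 77.8% after quantile normalization and 78.9% with 1 mean per label number. At an unadjusted p under 0.05 there were 17.2%, and none passed the threshold (0 genes of chromosome 6 by limma). The mean level of chromosome 6 in a tumour ran from -0.29 over 0.01 to 0.33 in E2F1 null and from -0.25 over -0.17 to 0.19 in E2F2 null tumours. E2F1 null tumours fell into a high and a low set, with 9 above 0.1 and 9 below -0.1, while 3 E2F2 null tumours lay above 0.1 and 13 below -0.1. Wild-type tumours covered the same span, from -0.28 over 0.11 to 0.36. Tumours of 1 label number could lie on both sides, at 0.19 and -0.29 in number 3886 and at -0.25, -0.09 and 0.19 in number 3560. Gadd45a, Csgalnact2 and Aak1, named above as higher in E2F1 null tumours, are genes of chromosome 6.

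Chromosome 15, which carries Myc, had 33.2% of its 355 genes higher in E2F1 null tumours and a median of -0.08, and chromosome 8 had 67.1% of 468 and a median of 0.06. Levels of chromosome 15 spanned nearly the same range, from -0.34 to 0.42 in E2F1 null and from -0.39 to 0.50 in E2F2 null tumours. Bop1, Ndrg1 and Cyc1, named above as lower in E2F1 null tumours, are on chromosome 15, as is Col2a1, which was higher. Chromosomes 2 and 4, each with called genes around 1 locus, had 54.2% and 54.3% of their genes higher and medians of 0.01 and 0.02.

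**Figure D5:**
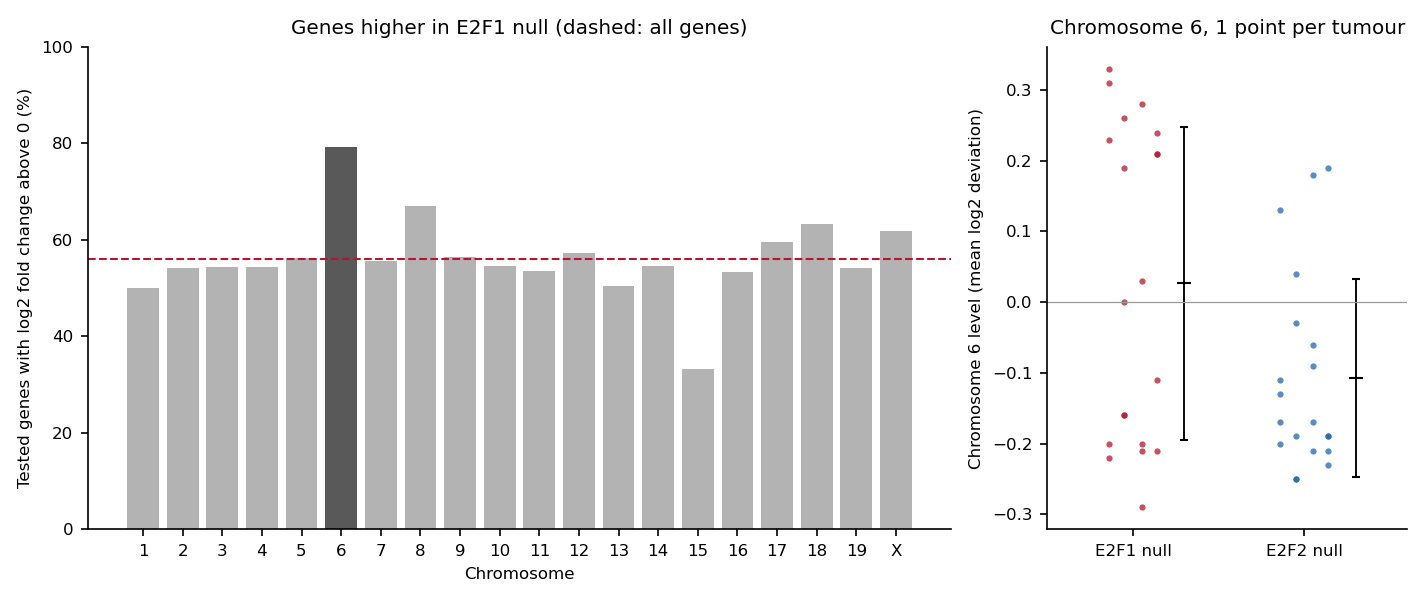
The left bars give the percentage of tested genes on each chromosome with a log2 fold change above 0, with the dashed line at 56.1% for all genes. The right panel plots the chromosome 6 level of each tumour, with mean and SD of 20 tumours, where E2F1 null tumours spread from -0.29 to 0.33 and E2F2 null tumours from -0.25 to 0.19.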

How the data were processed

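Total RNA from 80 tumours was hybridised to 1-colour Affymetrix arrays, 1 per tumour. The authors deposited intensity on a linear scale, computed by MAS5 with Affymetrix Expression Console, per the submitters' processing notes. Versions and genome build were not given in the sources used here. Each array's mean without the extreme 2% at either end lay between 500.17 and 500.22, so arrays had been scaled to a common mean, and a change in total mRNA cannot be seen. Of 22626 probe sets that are no controls, 20380 carried 1 gene symbol, 691 several and 1555 none.

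Intensities were turned into log2(value + 5). A probe set was kept above 74.58, the 40th percentile of all values, on at least 10 of 80 arrays, and each gene was represented by its brightest probe set, which gave 8769 tested genes of 12393. The limma 3.58.1 fit (statmod 1.5.0, R 4.3.3) used all 80 arrays in 4 genotype groups, the label number as a random block (correlation 0.159), an intensity trend and robust moderation. Tests were two-sided, with Benjamini-Hochberg adjustment over all tested genes and a threshold of 0.05. The script was tested on simulated data. The number of arrays limits precision, and the SE of a fold change had a median of 0.12. Lists were described by counts and medians without a test. Chromosomes, distances and promoters came from RefSeq, GRCm38.p6; the promoter table held 7104 of the tested genes. Python 3.11.15, numpy 2.4.6, pandas 2.3.3 and matplotlib 3.10.9 were used.

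Named genes are all genes past the threshold, the 20 smallest p and the 10 largest fold changes (unadjusted p under 0.01) off chromosomes 2 and 4, genes within 20 Mb of E2f1 or E2f2 with an unadjusted p under 0.001, the targeted genes, and the list members with the smallest p. The comparison, the lists and the rules were chosen with earlier results of these data known. Alternatives were other pseudocounts, filters, scalings, probe set rules, moderation, block treatment and samples in the fit, and fits without E2F1 null replicate 6 or without each label number; those without each label number in turn were chosen after the data were seen.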

Additional observations from a re-analysis of the deposited data

Results flagged for a closer look

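Probe sets outside the named genes were tested as well. Of 1163 tested probe sets without 1 gene symbol, 2 passed when all 15255 were tested together by limma. The log2 fold change of probe set 1452452_at was -2.76 with an SE of 0.53 (limma adjusted p = 0.00157). It ran from 3.26 over a median of 3.82 to 6.36 in E2F1 null tumours and from 3.37 over 7.27 to 9.66 in E2F2 null tumours. Of the E2F2 null tumours 13 lay above every E2F1 null tumour, but only 2 E2F1 null tumours lay below every E2F2 null tumour. Wild-type tumours had a median of 3.69 and reached 8.43, and E2F3 heterozygous tumours had 4.14 and reached 9.63. Probe set 1439200_x_at had 0.87 (SE 0.21, limma adjusted p = 0.0356), with medians of 10.17 and 9.19. By it, 10 E2F1 null tumours lay above every E2F2 null tumour, and 4 E2F2 null tumours lay below every E2F1 null tumour. Neither probe set is named in the probe table used here.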

How the results depend on the processing

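The count of 14 genes past the threshold was 8 with medians equalised, 7 with 1 mean per label number and 32 when every probe set was tested. Of the 14 genes by name, 8 and 7 were kept under the first 2 of these. Off chromosomes 2 and 4 the count of 1 was 0 with medians equalised and with 1 mean per label number, and 2 without the block (Erdr1 and Psmb8) and over probe sets (Erdr1 and Pnpt1). Leaving out each label number in turn gave 7 to 15 genes in all, 7 to 14 of the 14 by name and 0 to 2 off both chromosomes. The lowest counts were 7 without number 3560 and 9 without 3895, and 9 of the 14 by name were kept without 3979. Rbbp9, Mapre1, Pnrc2, Rin2, Pdrg1 and Pink1 passed in 27 of 27 of these fits. Zcchc3 turned to -0.49 with the mean over probe sets, and E2f3 to 0.00 without the block. Among genes past the threshold, 182 values under alternatives kept direction and side, 23 kept direction alone and 1 turned. Among the other named genes, 458 kept both, 4 passed and 1 turned. The share of called genes higher in E2F1 null, 71.4%, was 50% with medians equalised, 81.8% with the 40 arrays alone, and 47.4% with the mean over probe sets. Of the 30 list medians, 5 turned in at least 1 of 6 alternatives (basal, fibroblast, muscle, unfolded protein response and circadian clock), and 16 others moved by over 1.5 times. The interferon median ran from -0.82 to -0.37 and that of Myc targets from -0.13 to -0.04. No paired analysis was possible because no label number holds tumours of both genotypes. Signals near or under the filter level, as for Rbbp9, Pofut1, Aldh4a1, Etv4, Twist1, Sgtb and Sema3b, leave the size of a difference uncertain.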
